A study of Bos taurus with 13 samples.

Results

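Genes of the inflammasome and of the interleukin-1 (IL-1) family were followed in whole blood RNA of dairy cows. Their list held 10 genes chosen by name, namely *IL1B*, *IL1RN*, *IL1R1*, *IL1RAP*, *IL18*, *IL18RAP*, *CASP1*, *NLRP3*, *PYCARD* and *GSDMD*, and 8 of them were counted under that name among 16095 named genes. No entry of the count tables carried the name *CASP1*, the protease of the inflammasome, or *PYCARD*, its adaptor, so both were not analysed here. The study took blood from the tail vein of Italian Red Pied cows (as the labels name the breed) ranked by cortisol in milk, a hormone released under stress, and counts of 7 cows with high cortisol (replicates 1 to 7) and 6 with low cortisol (replicates 8 to 13) were used. The labels name no treatment and give no age, and both groups came from the tails of 1 ranking. Each replicate was a separate cow, and whole blood was sequenced without separating its cells, so that fewer cells of a type and less RNA per cell cannot be told apart.

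As background, an inflammasome is a protein complex built in the cytosol of myeloid cells when a sensor such as NLRP3 detects damage or infection. It activates caspase-1, which cuts the inactive forms of interleukin-1 beta and interleukin-18 into secreted cytokines and cuts gasdermin D, whose released part opens pores in the cell membrane. The cytokines then act through paired receptor chains, and their action is limited by a receptor antagonist, a decoy receptor and a binding protein. In blood, neutrophils and monocytes are the main sources of interleukin-1 beta and of its antagonist, and glucocorticoids such as cortisol are known to restrain this pathway.

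The counts assigned to named genes ranged from 11045599 to 28124575 per cow, with a median of 17381198, and the depths of both groups overlapped. At this depth 3 counts correspond to between 0.107 and 0.272 CPM (counts per 1000000 counts), a limit that covers counting error only. Haemoglobin genes here are *HBB*, *HBG*, *HBM* and *HBQ1*, and no other haemoglobin gene was included, so their share is not the whole haemoglobin load. They took between 0.0114% and 0.815% of the counts, highest in high replicate 7. The other high cows reached 0.262% and the low cows 0.0552%. No tables held identical counts. Defining markers of neutrophils, monocytes, T cells and B cells were counted in the cows, with none of the counted genes at 0 in every cow. Of 14 listed neutrophil genes 10 were counted, since *CXCR1*, *CXCR2*, *FPR1* and *FPR2* had no entry of that name. The labels give no batch or date, and the p-values measure the spread between these 13 cows.

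The 8 genes lie on 5 chromosomes of the UMD3.1 build, as the count tables give them. *IL1R1* (chromosome 11, 6876948 to 6929909, plus strand) and *IL18RAP* (chromosome 11, 7196920 to 7221257, plus strand) are receptor genes separated by 267.01 kb, and *IL1B* (chromosome 11, 46410277 to 46418787, minus strand) and *IL1RN* (chromosome 11, 46699166 to 46706152, plus strand) are ligand genes separated by 280.4 kb. *IL1RAP* lies on chromosome 1 (77198182 to 77343645, minus strand), *NLRP3* on chromosome 7 (42028059 to 42075814, plus strand), *GSDMD* on chromosome 14 (2341290 to 2346302, minus strand) and *IL18* on chromosome 15 (22800427 to 22826698, minus strand). Counts were summed over the exons of each gene, and their merged exon length ran from 794 bases in *IL18* to 3679 bases in *NLRP3*. No exon of the 8 genes overlapped an exon of another named gene.

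All 8 genes were counted in every cow and passed the filter on low counts, with 11033 genes tested in all. None of the 8 differed between high and low cortisol in the edgeR quasi-likelihood test with Benjamini-Hochberg adjustment (adjusted p = 0.998 for each), beside 0% of all genes tested. None reached an unadjusted p under 0.05 either, beside 2.09% of all genes (231 genes). The high group was higher in 3 of the 8 genes and lower in 5, beside 5885 and 5148 of all 11033 genes tested. The median log2 fold change (high minus low) was -0.12 beside 0.012 over all genes tested. The CPM of both groups overlapped for each of the 8 genes, beside 0.0272% of all genes (3 genes) whose groups did not overlap.

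**Figure D1:**
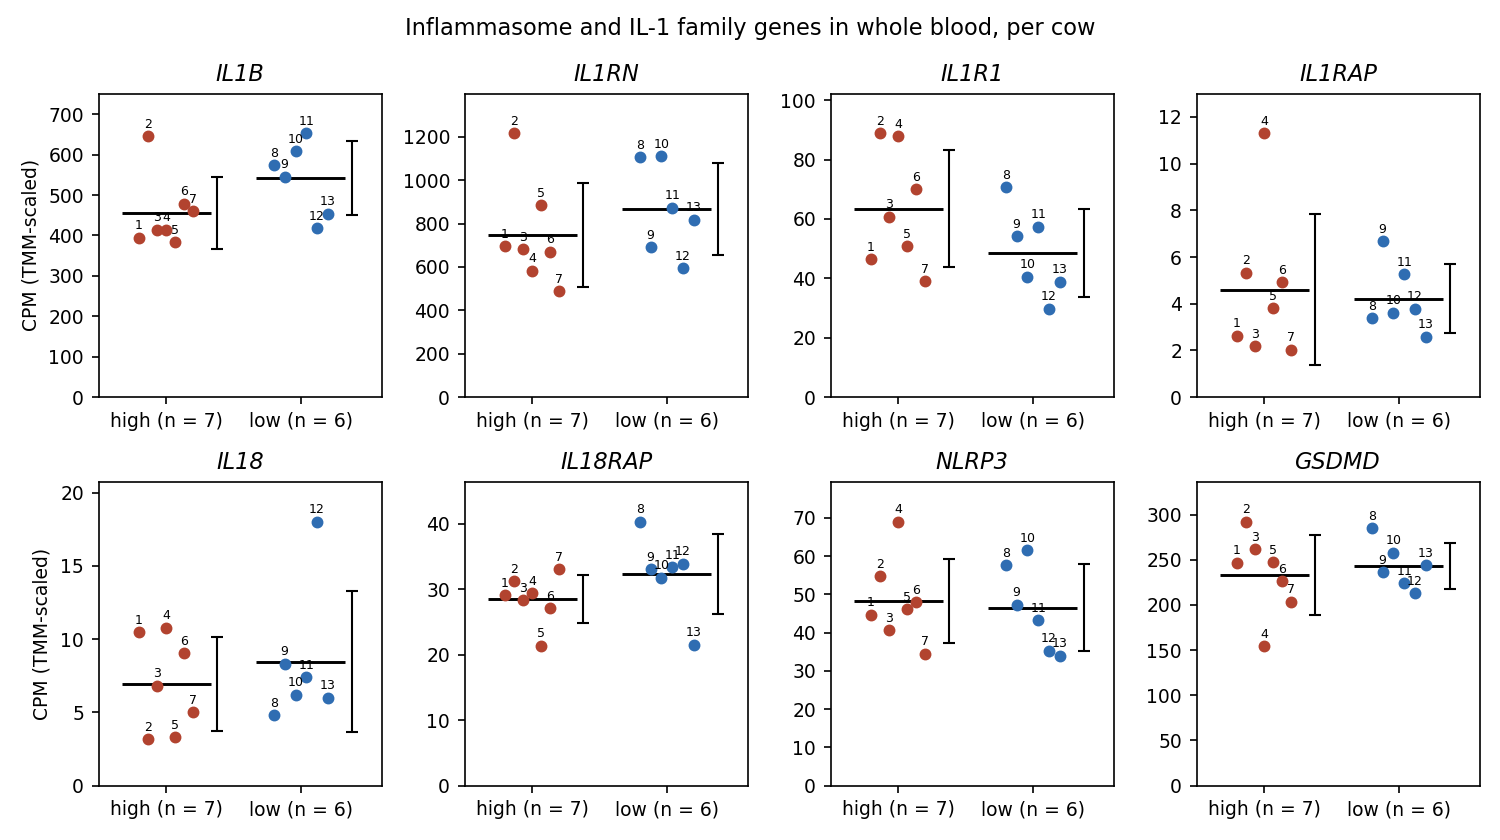
TMM-scaled CPM (y axis, linear, from 0) of the 8 genes in each cow, with the replicate number above each point, the horizontal line at the group mean and the bar spanning the mean ± SD (7 high cows in red, 6 low cows in blue). The groups overlap in every panel, replicate 2 stands above the other high cows for *IL1B*, and replicate 4 has the highest *IL1RAP* and *NLRP3* and the lowest *GSDMD*.

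*IL1B* encodes interleukin-1 beta, the fever-inducing cytokine that caspase-1 matures. Its CPM ran from 383 through a median of 414 to 645 in the high group, and from 418 through a median of 559.5 to 653 in the low group. Of the high cows, 6 of 7 lay below the median of the low cows, and replicate 2 alone lay above it. The group means, 456 ± 90.2 CPM in the 7 high cows and 542 ± 90.6 CPM in the 6 low cows (± SD), were less than 1 SD apart. The difference did not pass the test, at a log2 fold change of -0.25 (SE 0.14, 95% interval -0.54 to 0.041, edgeR unadjusted p = 0.0870), and an exact permutation test (two-sided, 1716 splits) gave p = 0.0979. This gene had the lowest edgeR p of the 8. Without high replicate 2 the log2 fold change was -0.35 (edgeR unadjusted p = 0.0112, adjusted p = 0.913) and without low replicate 12 it was -0.32 (edgeR unadjusted p = 0.0373, adjusted p = 0.999).

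*IL1RN* encodes the receptor antagonist, which occupies the IL-1 receptor without starting a signal. In the high group its CPM ran from 487 through a median of 683 to 1217, and in the low group from 595 through a median of 845 to 1110.1. Replicates 2, 8 and 10, from both groups, had the highest values, and replicate 7 was the lowest of all. With means of 746 ± 240.3 CPM (high, SD, n = 7) and 866 ± 212 CPM (low, SD, n = 6), the log2 fold change of -0.22 (SE 0.20, 95% interval -0.64 to 0.21) did not pass the test (edgeR unadjusted p = 0.294, exact permutation p = 0.301). It turned to 0.053 with the haemoglobin share of each cow as a covariate. Without high replicate 2 it was -0.37 (edgeR unadjusted p = 0.0436, adjusted p = 0.913).

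*IL18* encodes interleukin-18, the caspase-1 substrate that induces interferon gamma in lymphocytes. It was among the less abundant genes of the list, with 55 to 223 counts per cow. Its CPM ran from 3.19 through a median of 6.83 to 10.8 in the high group and from 4.83 through a median of 6.81 to 18.0 in the low group. The medians were nearly equal, and low replicate 12 stood well above the other cows of its group. The log2 fold change was -0.28 (SE 0.35, 95% interval -1.02 to 0.46, edgeR unadjusted p = 0.442, exact permutation p = 0.476), and it was 0.083 without low replicate 12.

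*IL1R1* encodes the signalling receptor for interleukin-1. In the high group its CPM ran from 39.1 through a median of 60.8 to 88.9, and in the low group from 29.8 through a median of 47.4 to 70.7. Of the high cows, 5 of 7 were above the low median, with replicates 2 and 4 the highest and low replicate 12 the lowest. The high mean of 63.5 ± 19.8 CPM (SD, n = 7) exceeded the low mean of 48.6 ± 14.9 CPM (SD, n = 6), and the log2 fold change of 0.38 (SE 0.22, 95% interval -0.085 to 0.85) did not pass the test (edgeR unadjusted p = 0.102, exact permutation p = 0.159). It kept a positive sign in all 23 alternative fits, between 0.28 and 0.59.

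The highest of those values came with the neutrophil score as a covariate (log2 fold change 0.59, SE 0.16, edgeR unadjusted p = 0.00204, adjusted p = 0.848). In that fit 4.34% of all genes had an unadjusted p under 0.05. The score is the mean over 10 neutrophil genes of their centred log2 CPM, and it lay between -0.60 and 0.42 among high cows and between -0.18 and 0.41 among low cows (exact permutation p = 0.248). The summed level of these genes was 5967 to 11894 CPM among high cows and 8908 to 12440.4 CPM among low cows, and the r of *IL1R1* with the score was 0.52 (permutation p = 0.0708, adjusted p = 0.438), with a rho of 0.63 (permutation p = 0.0239, adjusted p = 0.274). With group means removed r was 0.77 (permutation adjusted p = 0.0483). Leaving out single cows gave *IL1R1* an edgeR unadjusted p of 0.0421 (log2 fold change 0.47) without high replicate 7 and of 0.0316 (log2 fold change 0.52) without low replicate 8, with an adjusted p near 1.00 in both.

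*IL1RAP* encodes the accessory chain that *IL1R1* needs to signal, and it was the least abundant of the 8 genes (27 to 177 counts per cow). Its CPM ran from 2.03 through a median of 3.81 to 11.3 in the high group and from 2.59 through a median of 3.70 to 6.69 in the low group. High replicate 4 carried the highest value, more than that of any other cow by a wide margin. The direction of the difference was not settled, since the log2 fold change was 0.12 in edgeR (SE 0.37, 95% interval -0.67 to 0.91, unadjusted p = 0.746), -0.046 as a difference of mean log2 CPM (exact permutation p = 0.911) and -0.28 without high replicate 4.

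*IL18RAP* encodes the accessory chain of the interleukin-18 receptor, known from natural killer cells, T cells and neutrophils. In the high group its CPM ran from 21.4 through a median of 29.0 to 33.0, and in the low group from 21.5 through a median of 33.2 to 40.3. All 7 high cows lay below the low median, while low replicate 13 lay near the lowest high cow. Means were 28.5 ± 3.70 CPM (high, SD, n = 7) and 32.3 ± 6.07 CPM (low, SD, n = 6). The log2 fold change was -0.18 (SE 0.14, 95% interval -0.47 to 0.11, edgeR unadjusted p = 0.205, exact permutation p = 0.255). Without low replicate 13 it was -0.28 (edgeR unadjusted p = 0.0361, adjusted p near 1.00).

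*NLRP3* encodes the sensor of the best known inflammasome. Its CPM ran from 34.5 through a median of 46.1 to 69.0 in the high group and from 34.0 through a median of 45.3 to 61.6 in the low group. The groups had almost the same range, and the log2 fold change was 0.051 (SE 0.17, 95% interval -0.31 to 0.41, edgeR unadjusted p = 0.769, exact permutation p = 0.757). Its sign turned when high replicate 4 (-0.058), low replicate 12 (-0.016) or low replicate 13 (-0.025) was left out.

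*GSDMD* encodes gasdermin D, the pore protein of pyroptotic cell death. In the high group its CPM ran from 154 through a median of 247 to 292, and in the low group from 213 through a median of 240.04 to 285. Apart from replicate 4, at 154 CPM, all cows lay between 204 and 292 CPM. The log2 fold change was -0.061 (SE 0.13, 95% interval -0.33 to 0.21, edgeR unadjusted p = 0.638, exact permutation p = 0.611), the narrowest interval of the 8 genes. It was 0.058 with the haemoglobin share as a covariate and 0.017 without replicate 4.

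**Figure D2:**
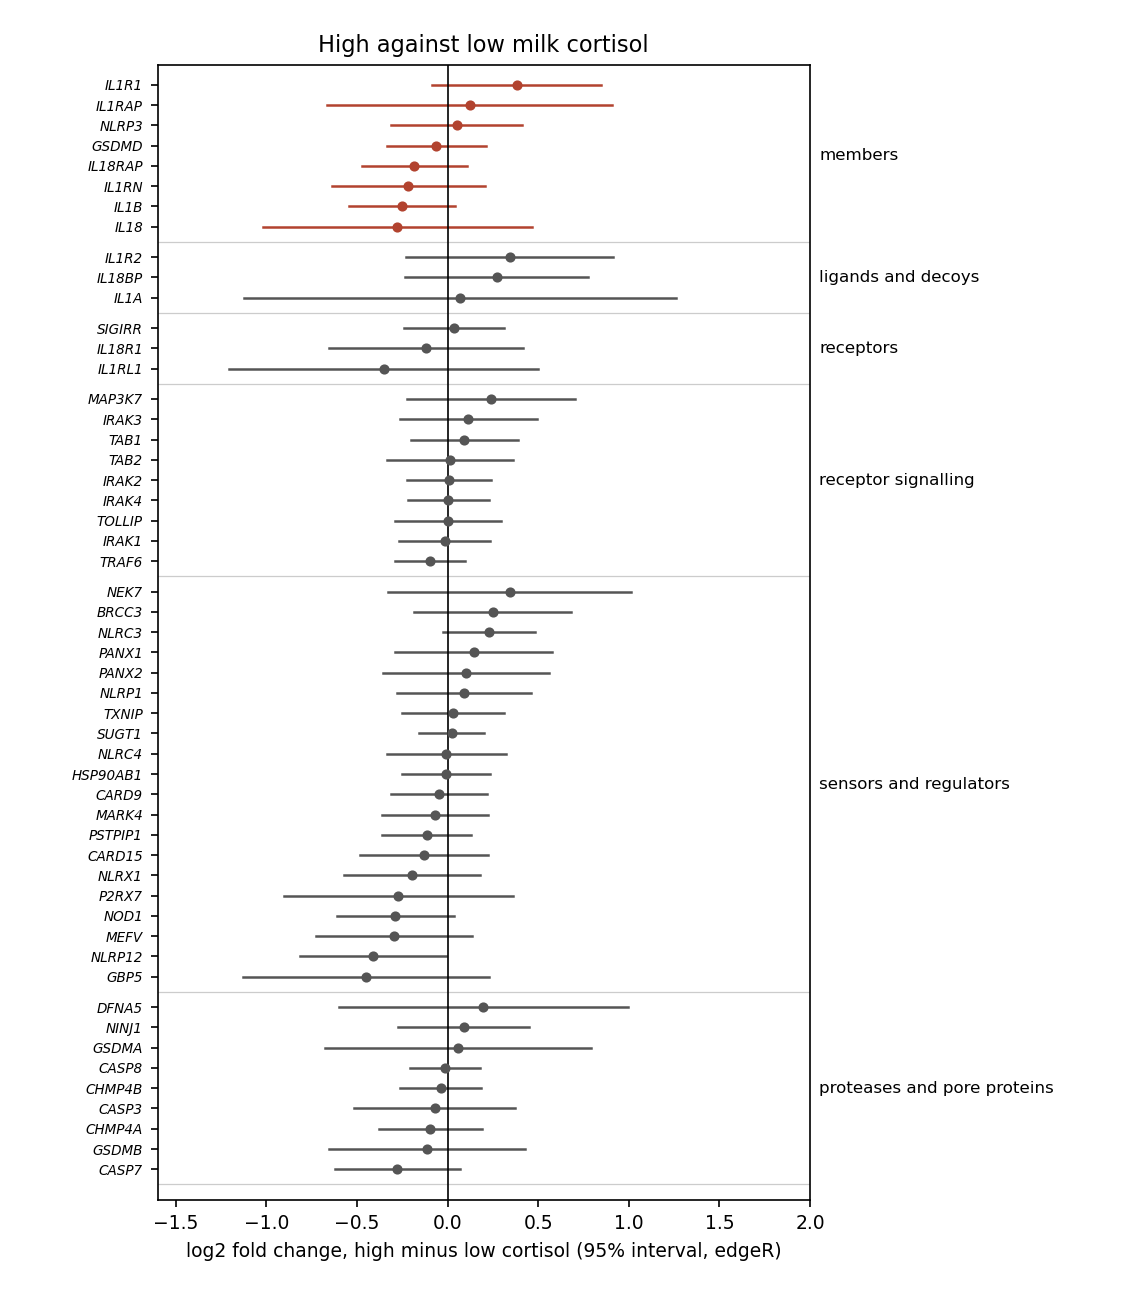
The log2 fold change of high minus low cortisol (x axis) with its 95% interval from edgeR, for the 8 genes (red) and 44 other genes of the pathway (grey) in 5 groups. The intervals of all 8 genes cross 0, and of the 44 others that of *NLRP12* alone does not, ending at -0.0070.

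Levels were compared between genes per length, as RPKM (CPM divided by the merged exon length in kilobases). The antagonist *IL1RN* was the most abundant of the 8, with 428 ± 121 RPKM (SD, n = 13), and 98.3% of the genes tested had a lower mean RPKM. *IL1B* followed with 285 ± 56.1 RPKM and *GSDMD* with 148 ± 22.3 RPKM, above 97.2% and 94.0% of the genes tested. These 3 stood well above the receptors and the sensor. *IL1R1* had 33.0 ± 10.9 RPKM, *IL18RAP* 16.0 ± 2.71 RPKM and *NLRP3* 12.9 ± 2.93 RPKM, the last 2 close to the middle of all genes tested. *IL18* had 9.64 ± 4.97 RPKM and *IL1RAP* 1.48 ± 0.829 RPKM, with only 13.5% of genes lower than *IL1RAP*.

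This order held between all 7 pairs of neighbours (exact two-sided sign-flip test of log2 RPKM over 13 cows, adjusted p under 0.05 for each). *IL1RN* exceeded *IL1B* 1.47-fold and in 12 of 13 cows (exact p = 0.000488, adjusted p = 0.000684), with replicate 7 as the exception. *IL1RAP*, the accessory chain, was 6.57-fold lower than *IL18*, the gene above it, and lower in 13 of 13 cows. The closest neighbours were *IL18RAP* and *NLRP3*, 1.26-fold apart with the first higher in 11 of 13 cows (exact p = 0.00537, adjusted p = 0.00627), and their order turned in CPM without division by length. *NLRP3* exceeded *IL18* 1.46-fold in 11 of 13 cows (exact p = 0.0349, adjusted p = 0.0349), and this neighbour alone missed the threshold when replicate 2, 5, 7, 8 or 10 was left out (exact adjusted p from 0.0513 to 0.0698).

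**Figure D3:**
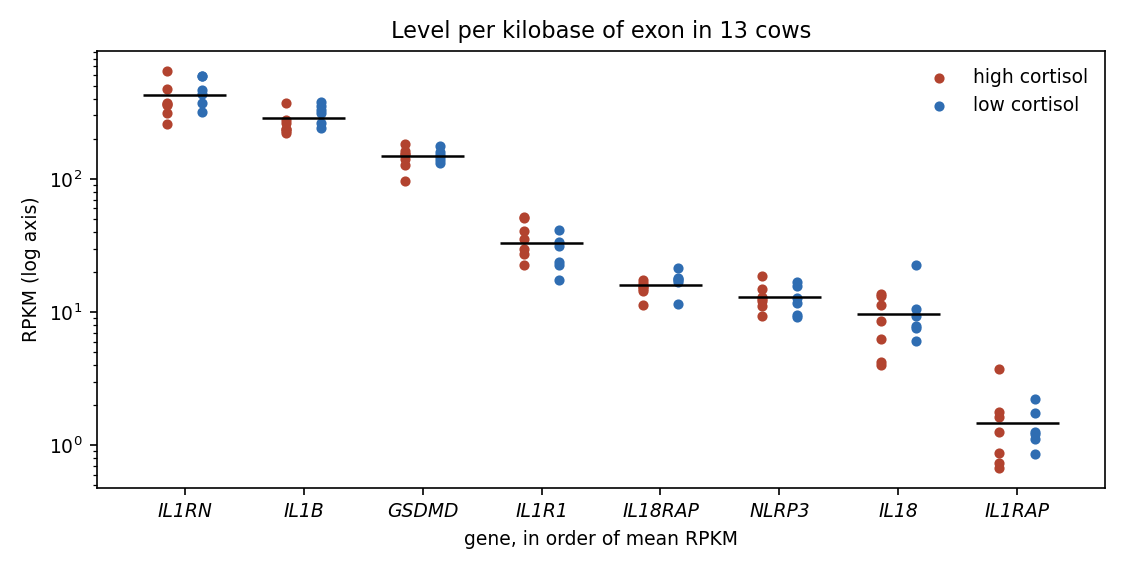
RPKM (y axis, log scale) of the 8 genes in order of their mean over 13 cows (horizontal line), with 1 point per cow (7 high in red, 6 low in blue). *IL1RN*, *IL1B* and *GSDMD* lie more than 4-fold above the other genes on average, and the points of *IL18* and *IL1RAP* spread the most.

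The genes differed in how much they varied between cows. *GSDMD* and *IL18RAP*, a pore protein and a receptor chain, had the lowest SD of log2 CPM, 0.24 and 0.25, with a highest cow 1.89-fold above the lowest for each. *IL1B* had the smallest fold between the lowest and the highest cow, 1.70 (SD of log2 CPM 0.28), while *NLRP3* varied 2.03-fold (0.32) and *IL1RN* 2.50-fold (0.40). The cytokine gene *IL18* and the accessory chain *IL1RAP* varied 5.66-fold and 5.58-fold, each with an SD of 0.68, which 91.8% and 91.3% of the genes tested did not reach. Low counts alone raise the SD of a gene, and the median SD of genes within 2-fold of the same RPKM was 0.29 for *IL18* and 0.50 for *IL1RAP*. These genes were matched on RPKM and not on counts, and *IL18* had the shortest merged exons of the 8 (794 bases). The medians therefore cannot show how much of its SD came with low counts. *IL1R1* had an SD of 0.48 beside a median of 0.23 among genes of its level. The median SD was 0.36 over the 8 genes and 0.31 over all genes tested.

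Ratios of partner genes within a cow do not depend on the scaling between cows. *IL1B* reads were between 0.434 and 0.944 of the *IL1RN* reads, so the antagonist had more reads than the cytokine in each of the 13 cows, with replicate 5 lowest and replicate 7 highest. The mean log2 ratio (with 2 added to each count) was -0.67 ± 0.36 (high, SD, n = 7) and -0.66 ± 0.26 (low, SD, n = 6), and the exact permutation test gave p = 0.914 (adjusted p = 0.974). *IL1R1* had 3.22 to 9.74 times the reads of *IL1R2*, which encodes the decoy receptor that binds interleukin-1 without signalling. The mean log2 ratio of this pair was 2.42 ± 0.61 (SD, n = 7) against 2.31 ± 0.54 (SD, n = 6) (exact permutation p = 0.761, adjusted p = 0.974).

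*IL18BP* encodes the binding protein that neutralises interleukin-18, and the reads of *IL18* were between 0.182 (replicate 5) and 2.11 (replicate 4) of its reads. This ratio varied the most of the 4 that were formed, and its mean log2 value was -1.10 ± 1.17 (high, SD, n = 7) and -0.65 ± 0.67 (low, SD, n = 6) (exact permutation p = 0.417, adjusted p = 0.974). *IL18RAP* had 2.38 to 7.03 times the reads of *IL18R1*, the ligand-binding chain of the same receptor, with a mean log2 ratio of 1.96 ± 0.53 (SD, n = 7) and 1.95 ± 0.32 (SD, n = 6) (exact permutation p = 0.974, adjusted p = 0.974). The differences of *IL1B* over *IL1RN* (-0.019), *IL1R1* over *IL1R2* (0.10) and *IL18RAP* over *IL18R1* (0.0090) were small beside the SDs.

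Other genes of the pathway were taken from a list of 61 names, of which 54 were counted and 44 passed the filter. None passed the adjusted test (0% of all genes). Of the 44, 22 had a positive and 22 a negative log2 fold change, beside 5885 and 5148 of all genes tested. Their median was near 0 beside 0.012 over all genes. *NLRP12*, which encodes a sensor reported to restrain inflammation, was the only one with an unadjusted p under 0.05 (2.09% of all genes), at 14.8 to 27.6 CPM among high cows and 18.8 to 42.9 CPM among low cows. It had a log2 fold change of -0.41 (SE 0.19, edgeR unadjusted p = 0.0466, adjusted p = 0.998), and its exact permutation p was 0.0927.

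By role, 3 of 9 ligands and decoys were tested, and the 3 had positive log2 fold changes, beside 5885 of all 11033 genes tested. Among the 3 were *IL1R2* (0.34, edgeR unadjusted p = 0.220) and *IL18BP* (0.27, edgeR unadjusted p = 0.271). *IL36G*, *IL36RN* and *IL37*, 3 ligands of the family known from epithelia, had 0 counts in every cow, and *IL33*, *IL36A* and *IL36B* had at most 6 counts in a cow. *IL1A*, the other interleukin-1 agonist, had 2 to 46 counts per cow. Of the receptors 3 of 4 were tested, of the receptor signalling genes 9 of 9, of the sensors and regulators 20 of 22, and of the proteases and pore proteins 9 of 10, with median log2 fold changes of -0.12, 0.0096, -0.029 and -0.038.

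The most abundant of the other pathway genes was *TXNIP*, which encodes a thioredoxin-binding protein that can engage NLRP3, at 759 RPKM on average. It was followed by *PSTPIP1* (270.4 RPKM), whose product binds pyrin, *CHMP4B* (118 RPKM), which takes part in membrane repair, and 2 inhibitors of IL-1 receptor signalling, *SIGIRR* (109 RPKM) and *TOLLIP* (104 RPKM). *IL1RN* and *IL1B* therefore ranked among the abundant genes of the pathway, and *TXNIP* alone of the 44 had a higher mean RPKM than *IL1RN*. The log2 fold changes of *TXNIP*, *PSTPIP1*, *SIGIRR* and *TOLLIP* were 0.030, -0.12, 0.034 and 0.0012, and none passed the test.

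Co-variation over the 13 cows was measured for the 28 pairs of the 8 genes, with Pearson r and Spearman rho of log2 CPM and 100000 permutations. The coefficient was positive in 21 pairs and negative in 7, from -0.59 to 0.74 with a median of 0.21. No pair passed the test with Pearson r after adjustment over the 28 pairs, and 6 had an unadjusted p under 0.05. The shares of all pairs of tested genes with such a p or with a positive coefficient were not computed, so these counts have no background. The pair *IL1RN* and *GSDMD* alone had an r of at least 0.7, beside 4.41% of all pairs of tested genes, and no pair had an r of -0.7 or less, beside 4.04%.

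The antagonist gene *IL1RN* and the pore gene *GSDMD* had an r of 0.74 (permutation p = 0.00233, adjusted p = 0.0652) and a rho of 0.80 (permutation p = 0.00157, adjusted p = 0.0440). Replicates 2, 8 and 10 were high in both genes, and replicates 4, 7 and 12 were low in both. The relation had an r of 0.76 without the 2 cows farthest from the median of *GSDMD*. It had the same sign within the high (r = 0.72) and the low group (r = 0.84). Such an r was common for both genes, as 880 of 11032 other genes had an r of at least 0.7 with *GSDMD* and 494 with *IL1RN*. With Pearson r the pair passed the adjusted test when replicate 3, 4 or 7 was left out (permutation adjusted p = 0.0361, 0.0398 and 0.0346).

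The ligand genes of chromosome 11 had a positive coefficient that did not pass the test. *IL1B* and *IL1RN* had an r of 0.65 (permutation p = 0.0195, adjusted p = 0.136) and a rho of 0.45 (permutation p = 0.129, adjusted p = 0.452), and r was 0.43 without the 2 farthest cows. The receptor genes of this chromosome, *IL1R1* and *IL18RAP*, had an r of 0.11 and a rho of -0.0055 (permutation p = 0.719 and 0.993, adjusted p = 0.875 and 0.993). These receptor genes are not adjacent, since *IL1RL2*, *IL1RL1* and *IL18R1* lie between them.

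The sensor gene *NLRP3* had positive coefficients with both chains of the IL-1 receptor, neither past the adjusted threshold. *NLRP3* and *IL1R1* had an r of 0.69 (permutation p = 0.0104, adjusted p = 0.136) and a rho of 0.68 (permutation p = 0.0137, adjusted p = 0.176). The coefficient was 0.54 without the 2 farthest cows, and it passed the adjusted test without low replicate 10 (r = 0.88, permutation adjusted p = 0.00728). *NLRP3* and *IL1RAP* had an r of 0.65 (permutation p = 0.0154, adjusted p = 0.136) and a rho of 0.60 (permutation p = 0.0314, adjusted p = 0.176), and here r was 0.40 without the 2 farthest cows, 0.96 in the high and 0.18 in the low group. *IL1R1* and *IL1RAP*, the partner chains of 1 receptor, had an r of 0.57 (permutation p = 0.0404, adjusted p = 0.188) and a rho of 0.53 (permutation p = 0.0648, adjusted p = 0.259), with 0.33 left without the 2 farthest cows.

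*IL18* had negative coefficients with the genes of the antagonist and the pore protein, which did not pass the adjusted test. *IL1RN* and *IL18* had an r of -0.59 (permutation p = 0.0340, adjusted p = 0.188) and a rho of -0.63 (permutation p = 0.0256, adjusted p = 0.176), and r was -0.39 without the 2 farthest cows and -0.81 without high replicate 7 (permutation adjusted p = 0.0328). *IL18* and *GSDMD* had an r of -0.55 (permutation p = 0.0524, adjusted p = 0.210) and a rho of -0.63 (permutation p = 0.0231, adjusted p = 0.176), and r was -0.76 without the 2 farthest cows. Low replicate 12, the cow with the highest *IL18*, had the third lowest value of both other genes.

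**Figure D4:**
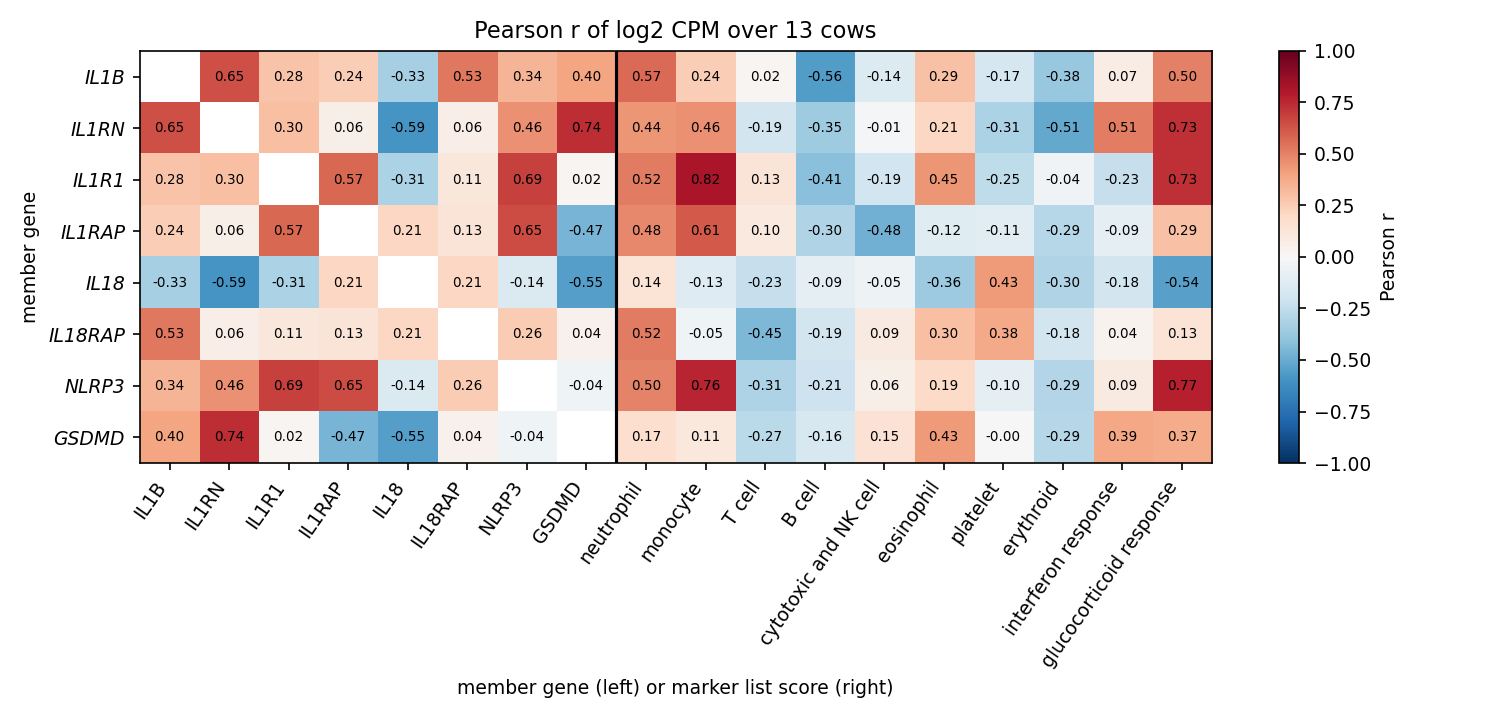
Pearson r over 13 cows (color and printed value) of log2 CPM between the 8 genes (left of the line) and with the scores of 10 marker lists (right of the line). The darkest red cells are *IL1R1* with the monocyte score (0.82), *NLRP3* with the glucocorticoid response (0.77) and monocyte scores (0.76), and *IL1RN* with *GSDMD* (0.74).

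Each gene was set beside 10 marker lists, 8 of blood cell types and 1 each of genes induced by interferon and by glucocorticoids. Of the 80 relations, 7 had an unadjusted p under 0.05, and the share over all genes tested at this cut was not computed. After adjustment 1 passed the test, that of *IL1R1* with the monocyte score. The r was 0.82 (permutation p = 0.000430, adjusted p = 0.0344) and the rho 0.82 (permutation p = 0.00103, adjusted p = 0.0824), with r 0.83 without the 2 farthest cows, 0.92 in the high and 0.75 in the low group. Of all genes tested, 3.59% had an absolute r of at least 0.7 with this score. The adjusted call was lost in 11 alternatives and kept in 7, while r stayed between 0.77 and 0.87 in all of them.

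Within the monocyte list, *IL1R1* had an r of 0.72 with *CD163*, 0.71 with *VCAN* and 0.70 with *CD14*, and its r was lowest with *CD68* (0.045), *CX3CR1* (-0.11) and *MS4A7* (-0.13). *CD163* encodes a scavenger receptor of monocytes and macrophages, and *CD14* their co-receptor for bacterial lipopolysaccharide. *NLRP3* had an r of 0.76 with the monocyte score (permutation p = 0.00240, adjusted p = 0.0640) and a rho of 0.64 (permutation p = 0.0212, adjusted p = 0.274), and all 10 monocyte genes had a positive r with it. This relation passed the adjusted test with group means removed (r = 0.76, permutation adjusted p = 0.0420) and without low replicate 10 (r = 0.81, permutation adjusted p = 0.0443). *IL1RAP* had an r of 0.61 with this score (permutation p = 0.0276, adjusted p = 0.368). The score itself lay between -0.64 and 0.46 among high cows and between -0.39 and 0.084 among low cows (exact permutation p = 0.529), with replicate 7 lowest and replicate 2 highest.

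*IL1B* had its largest r with the neutrophil score (0.57, permutation p = 0.0429, adjusted p = 0.438), with a rho of 0.51 (permutation p = 0.0805, adjusted p = 0.470). Of 10 neutrophil genes, 9 had a positive r with *IL1B*, highest for *CSF3R*, the receptor of granulocyte colony-stimulating factor (0.63). *IL1RN* was also closest to *CSF3R* in this list (0.86), beside a score r of 0.44 (permutation p = 0.130, adjusted p = 0.497). Its r was positive with 8 of the 10 neutrophil genes and negative with *S100A8* (-0.31) and *S100A12* (-0.14). *GSDMD* had its highest r with *MMP25* (0.79), which encodes a protease of neutrophils, and its lowest with *S100A8* (-0.77), which encodes a subunit of calprotectin, while its r with the score was 0.17 (permutation p = 0.590, adjusted p = 0.846).

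With the list of 8 glucocorticoid-induced genes, 3 of the genes had an r above 0.7, beside 2.39% of all genes with an absolute r of at least 0.7. These were *NLRP3* (r = 0.77, permutation p = 0.00164, adjusted p = 0.0640), *IL1R1* (r = 0.73, permutation p = 0.00361, adjusted p = 0.0678) and *IL1RN* (r = 0.73, permutation p = 0.00424, adjusted p = 0.0678), with rho of 0.76, 0.68 and 0.73 (permutation adjusted p = 0.138, 0.268 and 0.154). None of the 3 passed the adjusted test over all 80 relations, and with group means removed all 3 did (r = 0.77, 0.77 and 0.80, permutation adjusted p = 0.0483, 0.0420 and 0.0180). Their leading genes differed, with *SGK1* (0.94) and *TSC22D3* (0.89) for *IL1RN*, *KLF9* (0.84) for *IL1R1* and *FKBP5* (0.72) for *NLRP3*. Without the 2 cows farthest from the median score, r was 0.76 for *NLRP3*, 0.71 for *IL1RN* and 0.57 for *IL1R1*, the last below 0.7. Each of the 3 had a positive r with 7 of the 8 list genes. The lowest r was -0.041 with *ZBTB16* for *IL1RN*, -0.0068 with *PER1* for *IL1R1* and -0.40 with *PER1* for *NLRP3*. The r of *IL1RN* with *FKBP5* was 0.097, and that of *IL1R1* with *SGK1* was 0.17. *IL18* was negative with 7 of these 8 genes and most so with *TSC22D3* (-0.76). The glucocorticoid score did not separate the groups, between -0.30 and 0.25 among high and between -0.55 and 0.35 among low cows (exact permutation p = 0.757).

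**Figure D5:**
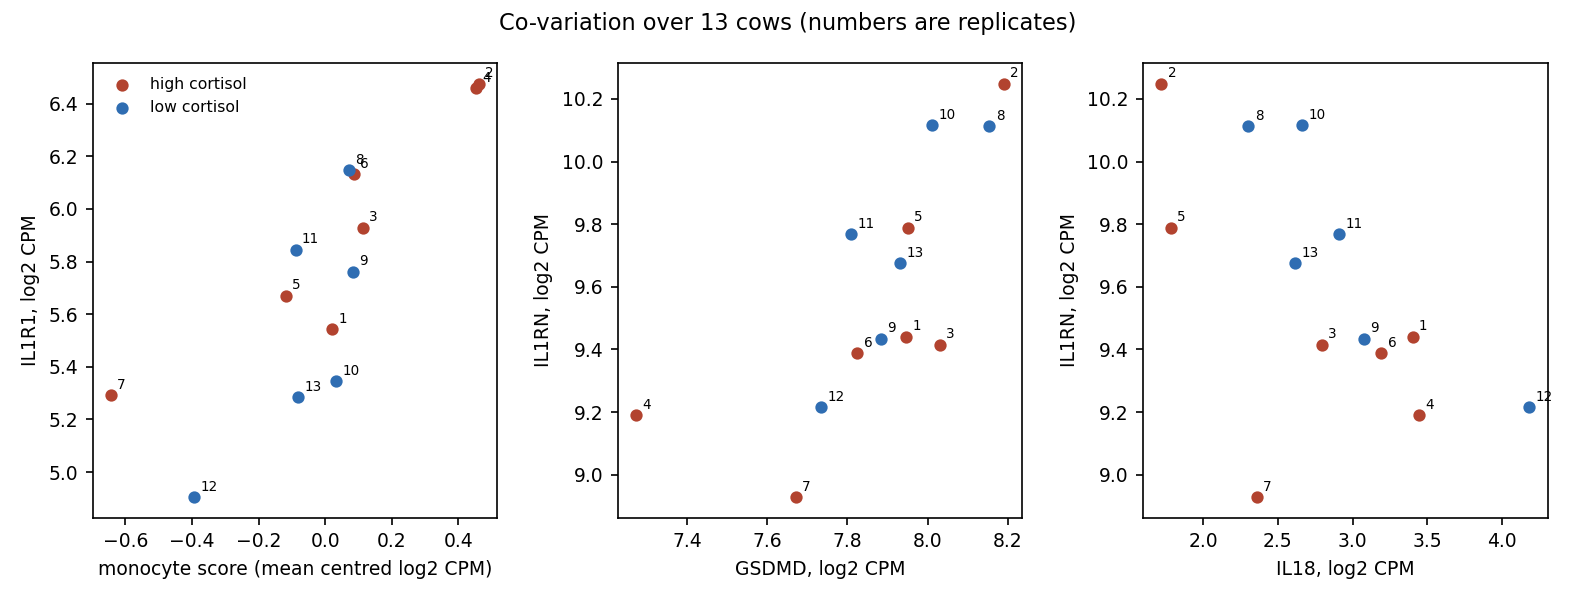
Log2 CPM of *IL1R1* against the monocyte score, of *IL1RN* against *GSDMD* and of *IL1RN* against *IL18* (1 point per cow with its replicate number, 7 high in red and 6 low in blue). The 2 groups are mixed along each trend, with replicates 2 and 4 at the upper end of the first panel and replicate 12 at the right end of the third.

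The interferon score was lower in the high group by 0.83 on the log2 scale (exact permutation p = 0.0927). The erythroid score was higher in that group by 1.27 (exact permutation p = 0.0221, adjusted p = 0.221 over 10 lists), with replicate 7 highest. This score rests on 4 of 8 listed erythroid genes, those that passed the filter (*ALAS2*, *EPB42*, *HBB* and *HBM*). The summed level of the 7 erythroid genes that were counted was 373 to 7839 CPM among high cows and 138 to 569.7 CPM among low cows. The r of the 8 genes with the erythroid score lay between -0.51 for *IL1RN* and -0.035 for *IL1R1*. Its part in the group differences of these genes was not tested beyond the fit with the haemoglobin share.

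For each gene, the 3 tested genes with the highest Pearson r of log2 CPM over the 13 cows were read as the most similar, as a description. *IL1RN* was most like *TNFRSF1A* (0.95), which encodes a receptor of tumour necrosis factor, *SGK1* (0.94), also a gene of the glucocorticoid list, and *GAB4* (0.94). *GSDMD* was most like *ARHGAP30* (0.96), *TGFB1* (0.96) and *ZYX* (0.95), the last 2 encoding a cytokine and a focal adhesion protein. *IL1B* was most like *CCL16* (0.88), a chemokine gene, *SLC25A33* (0.83) and *TBL1Y* (0.81). *CCL16* itself had a log2 fold change of -0.63 (edgeR unadjusted p = 0.0413, adjusted p = 0.998).

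*NLRP3* was most like *MAML2* (0.89), *NAIP* (0.88), which encodes a sensor of another inflammasome, and *FAM129A* (0.88). *IL1R1* was most like *MGAT5* (0.92), *PATJ* (0.91, at 2 to 50 counts per cow) and *KIAA0100* (0.90), and *IL1RAP* was most like *KLF3* (0.91), *ST8SIA4* (0.90) and *RBBP5* (0.89). *IL18* was most like *ANLN* (0.87), *KIF18A* (0.87) and *GAS2* (0.86), the first 2 being genes of dividing cells. These 3 had fewer than 100 counts in every cow.

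*IL18RAP* had the weakest likeness, with *LRRC71* (r = 0.80, rho = 0.43), *MTMR11* (r = 0.79, rho = 0.51) and *TGFA* (r = 0.77, rho = 0.56). Only 0.326% of the other genes had an absolute r of at least 0.7 with *IL18RAP* and 0.580% with *IL1B*, while 16.5% had one with *GSDMD*, beside 8.45% over all pairs of tested genes. The shares of *IL1RN* and *IL1RAP* were 7.67% and 7.70%, close to that of all pairs, and those of *IL1R1*, *IL18* and *NLRP3* were 5.06%, 3.76% and 3.76%.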

How the data were processed

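Whole blood RNA of 13 cows was analysed, 7 high and 6 low, as grouped by the sample labels. The authors deposited raw counts of reads per gene name, without normalization. The table headers give featureCounts 1.4.6-p3 with exons of Ensembl 88 (UMD3.1), an alignment folder named for goat in 13 of 13 tables and animal numbers other than those of the tables, whereas the labels give cattle and the submitters' processing notes name STAR 2.7.3, Subread 1.6.5 and ARS-UCD1.2. These differences were not resolved. Whether strand was used in counting is not given in the sources used here. The entry without a gene name (13.9% to 16.7% of counts) was left out.

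TMM-scaled CPM, RPKM (CPM per kilobase of merged exons) and log2 CPM (prior count 2) were computed from the deposited counts. The high and low groups were tested by the quasi-likelihood method of edgeR 4.0.16 (robust, filterByExpr with minimum count 10 and minimum total 15, no covariates) in R 4.3.3, with Benjamini-Hochberg adjustment over 11033 genes. Exact permutation tests (two-sided, smallest possible p 0.000583), sign-flip tests and correlations with 100000 permutations used Python 3.11.15 and scipy 1.17.1. Permutation p-values of correlations were adjusted over 28 or 80 relations. Scores are means over a list of centred log2 CPM. Of 5 planned ratios 4 were formed, since that of *NLRP3* over *CASP1* had no counts of *CASP1*.

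The alternatives were DESeq2 1.42.0, limma-voom (limma 3.58.1), RLE and upper-quartile factors, leaving out haemoglobin genes, filters of 1 count over all cows and of 10 counts in every cow, the haemoglobin share or the neutrophil score as a covariate, a fit that was not robust, a prior count of 0.5, medians, CPM without length, Spearman rho, group means removed, and each of the 13 cows left out. The tests were first tried on simulated data. Named genes are the 8 genes, the ratio partners, the pathway genes with an unadjusted p under 0.05, the 5 most abundant pathway genes and the 3 genes most like each gene. Other pathway and list genes were named with their values in view. The genes, lists and tests were chosen with earlier results of these data known.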

Additional observations from a re-analysis of the deposited data

Results flagged for a closer look

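Each of 24 sets of values, the 8 genes and the 4 ratios in both groups, was searched for a cow whose gap to the nearest other cow was large beside the whole range of its group (Dixon's 95% critical value), and 2 cows were found where chance gives about 1 in 20 sets (1.2 of 24). *IL1B* in high replicate 2 had a log2 CPM of 9.33, while the other high cows lay between 8.58 and 8.90. This gap was 0.573 of the range, just above the critical value for 7 cows. The log2 ratio of *IL18RAP* to *IL18R1* in low replicate 12 was 2.54, while the other low cows lay between 1.70 and 2.01, and the gap was 0.631 of the range, just above the critical value for 6 cows.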

How the results depend on the processing

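No gene of the 8 passed the adjusted edgeR test and none of the 4 ratios passed the adjusted exact test under any alternative run. The count of genes with an edgeR unadjusted p under 0.05 was 1 with the neutrophil score as a covariate (*IL1R1*), and between 0 and 2 when single cows were left out, where the exact test called 0 to 1. Directions were less firm. The log2 fold change of *IL1RAP* was -0.070 in limma-voom, those of *IL1RN* and *GSDMD* were 0.053 and 0.058 with the haemoglobin share as a covariate, and the difference of *IL1R1* over *IL1R2* was -0.12 as a difference of medians. With single cows left out, the log2 fold change ranged from -0.28 to 0.30 for *IL1RAP*, -0.058 to 0.15 for *NLRP3*, -0.12 to 0.017 for *GSDMD* and -0.41 to 0.083 for *IL18*. The difference of mean log2 CPM ranged from -0.30 to 0.11 for *IL1RAP*, -0.034 to 0.15 for *NLRP3* and -0.13 to 0.014 for *GSDMD*, and the differences of log2 ratios from -0.12 to 0.069 for *IL1B* over *IL1RN*, -0.13 to 0.13 for *IL18RAP* over *IL18R1* and -0.039 to 0.26 for *IL1R1* over *IL1R2*. *IL1B*, *IL18RAP* and *IL1R1* kept their sign in all 23 alternative fits. Pairs of genes past the adjusted test numbered 1 with Spearman rho and 0 to 2 with single cows left out, and relations with marker lists 0 with Spearman rho, 6 with group means removed and 0 to 3 with single cows left out, while 6 to 7 neighbours in the order of levels passed. Over all genes, DESeq2 called 1 gene after adjustment, and the count at an unadjusted p under 0.05 was 348 in DESeq2, 414 without the stronger filter, 120 with the haemoglobin share, 479 with the neutrophil score and 191 to 373 with single cows left out (231 as reported). No scaling moved the median log2 fold change of all genes by more than 0.02. The cause of these shifts was not tested. No paired analysis was possible because the groups share no replicate number. *IL1RAP* and *IL18* rest on 27 to 223 counts per cow, which limits what their intervals can show.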
